A study of Homo sapiens with 2 samples.

Results

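The SOX genes encode transcription factors with an HMG box, and 10 of them (SOX2, SOX3, SOX4, SOX5, SOX6, SOX8, SOX9, SOX11, SOX12 and SOX13) were looked up by symbol in the deposited table of 19029 genes. A row was found for 7, namely SOX3, SOX4, SOX8, SOX9, SOX11, SOX12 and SOX13. For SOX2, SOX5 and SOX6 there was no row in the table used here, and they were not analysed. The 10 were picked with earlier results of these data known, so their ratios are given as a description and support no test.

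RNA sequencing compared BT549 cells overexpressing SNHG15 with BT549 cells carrying a control vector. BT549 is an established line of human breast cancer cells of mesenchymal character, and SNHG15 is the host gene of a small nucleolar RNA and gives a long non-coding RNA. The cells of both groups were cultured in DMEM with fetal bovine serum, penicillin and streptomycin. The promoter of the SNHG15 construct, and whether each line was 1 clone or a pool, are not given in the sources used here. Each group held 1 library, so no value below has a replicate error, and every 95% interval covers counting error only.

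SOX factors bind the minor groove of DNA through the HMG box and bend the helix, usually at sites with the letters ACAAT, and most act together with a partner factor. They are grouped by sequence. The B1 group, of which SOX2 and SOX3 are among the genes looked up here, keeps neural progenitors undifferentiated. The C group (SOX4, SOX11 and SOX12) activates genes in neuronal and mesenchymal progenitors. The D group (SOX5, SOX6 and SOX13) has no activation domain of its own. The E group (SOX8 and SOX9, with SOX10) acts in neural crest, glia and cartilage. In mammary cells SOX4 is known as a factor induced by TGF-beta, and SOX9 as a factor of luminal progenitors.

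The stretch around the start site is shown for the genes with a RefSeq promoter entry, 4 of the 7 (SOX3, SOX4, SOX12 and SOX13), because they include the member with the highest ratio and the member with the lowest. Each line runs 5′ to 3′ from 250 bases before to 50 bases after the RefSeq start site (GRCh38.p14), and capitals mark a CCAAT box (CCAAT) or a GC box (GGGCGG) on either strand.
SOX3: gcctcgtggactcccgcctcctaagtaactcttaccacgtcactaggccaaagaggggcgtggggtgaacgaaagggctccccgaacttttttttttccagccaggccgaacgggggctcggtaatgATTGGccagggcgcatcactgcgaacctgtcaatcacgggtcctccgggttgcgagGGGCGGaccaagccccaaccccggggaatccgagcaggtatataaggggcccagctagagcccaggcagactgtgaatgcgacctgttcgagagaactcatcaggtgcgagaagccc
SOX4: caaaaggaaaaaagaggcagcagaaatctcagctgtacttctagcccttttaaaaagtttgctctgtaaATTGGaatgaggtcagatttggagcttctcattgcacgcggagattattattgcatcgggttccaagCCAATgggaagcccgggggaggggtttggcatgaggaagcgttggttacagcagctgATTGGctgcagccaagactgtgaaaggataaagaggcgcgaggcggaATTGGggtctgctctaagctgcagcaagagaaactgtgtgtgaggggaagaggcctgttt
SOX12: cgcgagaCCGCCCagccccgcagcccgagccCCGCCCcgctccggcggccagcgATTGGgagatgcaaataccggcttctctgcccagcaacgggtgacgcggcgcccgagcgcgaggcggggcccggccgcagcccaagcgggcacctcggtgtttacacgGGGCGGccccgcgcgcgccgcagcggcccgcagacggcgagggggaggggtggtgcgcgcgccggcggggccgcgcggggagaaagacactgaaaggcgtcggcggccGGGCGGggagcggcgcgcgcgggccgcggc
SOX13: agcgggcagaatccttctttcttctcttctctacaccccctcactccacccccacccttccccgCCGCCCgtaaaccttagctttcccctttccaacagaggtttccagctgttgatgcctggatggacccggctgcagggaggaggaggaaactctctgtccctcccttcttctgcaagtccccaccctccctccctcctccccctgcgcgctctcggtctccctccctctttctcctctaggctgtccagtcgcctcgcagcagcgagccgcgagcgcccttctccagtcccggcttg
The SOX3 stretch lies at chrX:140505020-140505319 on the minus strand, that of SOX4 at chr6:21593501-21593800, that of SOX12 at chr20:325302-325601 and that of SOX13 at chr1:204072865-204073164, these 3 on the plus strand.

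The 4 stretches differed in base composition. The SOX12 stretch was 80.3% GC with 54 CG pairs, above 97.7% and 99.5% of the 35116 promoter entries respectively. SOX13 was at 62.7% GC with 15 CG pairs, SOX3 at 60.3% with 20 and SOX4 at 49.3% with 8, against medians of 58.7% and 14 over all entries. SOX4 held 4 CCAAT boxes, SOX3 and SOX12 held 1 each, and 34.6% of all entries hold at least 1. A GC box was present in SOX3, SOX12 and SOX13 (1, 4 and 1 copies) and in 45.0% of all entries. The letters ACAAT, and AACAAT, which contains them, were searched on both strands, as were ACAAAG, the related site of TCF factors, and TATAAA. None of these exact strings was found in these 4 windows (27.4%, 10.1%, 16.1% and 11.5% of all entries hold them). Variant forms of the sites were not searched. The RefSeq start of SOX13 was that of the deposited locus, while those of SOX12, SOX3 and SOX4 lay 151, 434 and 982 bases downstream of it. The SOX3 and SOX4 stretches therefore lie wholly inside the deposited loci of these genes, and the sequence before the deposited starts was not examined for them.

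The library of SNHG15-overexpressing cells (the overexpression library) held 16570496 counts and that of the vector control (the control library) 20799017. Counts were scaled by TMM to CPM (a count scaled to the size of its library), and 12934 genes passed a filter of 1 CPM on the mean of the libraries, called the genes compared. SNHG15 itself was at 34450 counts against 466, an 85.6-fold difference (78.1 to 94.0), and vector and genomic copies of it are not separated. By the 1.5-fold rule given in the next paragraph, 2 of 8 mesenchymal markers were higher, 4 lower and 2 neither. Of all genes compared, 13.3% were higher and 12.2% lower by that rule. FN1, the fibronectin gene, and TWIST1 were 1.80-fold and 1.67-fold lower, THY1 and ZEB1 had ratios of 0.499 and 0.590, and SPARC was 1.78-fold and CDH2 5.28-fold higher. The intermediate filament gene VIM was at 1998 CPM in the overexpression library and 1993 CPM in the control library. The luminal keratin KRT18 was 1.71-fold lower, while luminal GATA3 (1.11) and ERBB2 (0.876) were neither. Neuronal SNAP25 had a ratio of 0.407, while neuronal SYP, with more counts, was neither at 1.35. There was no row for the hormone receptor genes ESR1 and PGR or for epithelial EPCAM. Epithelial markers summed to 0.811 CPM in the overexpression library and 3.70 CPM in the control library. In the same order, CLDN7 had 2 and 40 counts and KRT19 0 and 23, while the cadherin gene CDH1 had 12 and 11. The haematopoietic marker with a row, CD14, was at 7.71 CPM in the overexpression library and 17.4 CPM in the control library. The endothelial receptor KDR had 1 count in each, and PTPRC, CD3E, PECAM1, CDH5, VWF, ALB and GFAP had no row. The part of these markers in the values below was not tested.

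All 7 SOX genes reached 1 CPM in both libraries, so none entered the comparison through 1 library alone. A ratio of at least 1.5-fold in either direction with an interval that excluded 1 was called higher or lower, and a gene was called beyond 2-fold where the whole interval lay past 2-fold. By the first rule 4 of the 7 were higher in the overexpression library (SOX3, SOX8, SOX4 and SOX11), 0 were lower and 3 were neither, while of all genes compared 13.3% were higher and 12.2% lower. Beyond 2-fold, 1 of the 7 was higher (SOX3) and 0 lower, against 2.2% and 2.45% of all genes, 285 and 317 in number. Using plain totals instead of TMM gave 366 and 237, shifted the median of all log2 ratios upward by 0.12, and left the same 4 SOX genes higher. The median log2 ratio, taken with a prior count of 2, was 0.64 over the 7 and 0.016 over all genes compared.

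**Figure D1:**
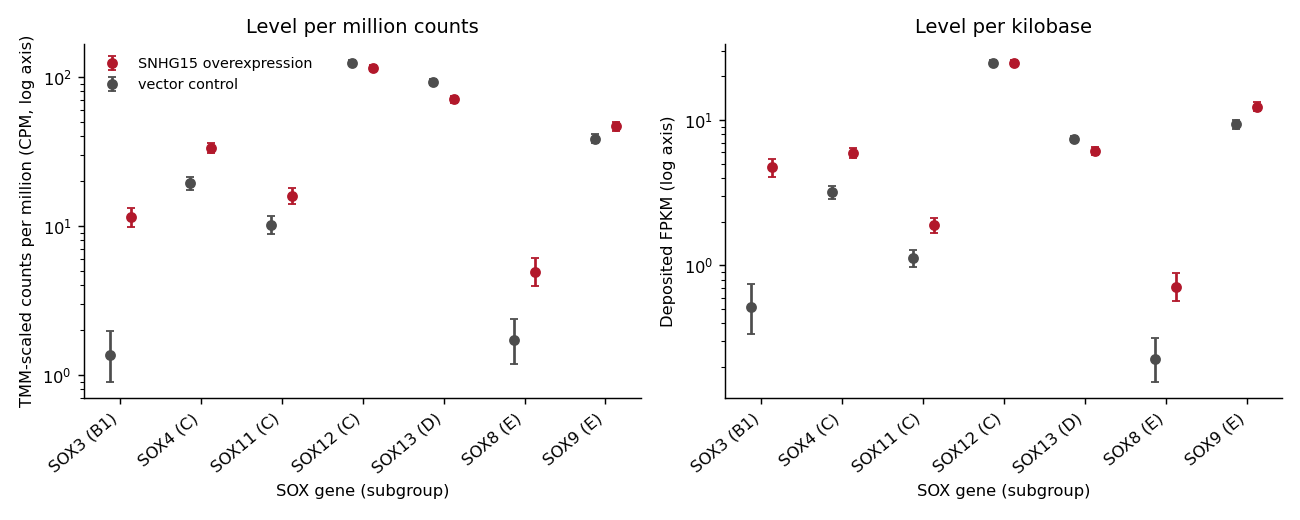
Level of each SOX gene in the overexpression library (red) and the control library (grey), as CPM on the left and deposited FPKM on the right, both on log axes, with bars for the 95% Poisson interval of the count. SOX12 is highest in both libraries, at 114.7 and 124.8 CPM, and the gap between libraries is widest for SOX3, at 11.4 and 1.35 CPM.

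SOX3, the B1 member, is a single-exon gene of neural progenitors and of the hypothalamus and pituitary, on the minus strand of chromosome X at 140502987 to 140505503 (hg38; ENSG00000134595). It had 197 counts in the overexpression library, or 11.4 CPM (9.88 to 13.1), and 27 counts in the control library, or 1.35 CPM (0.891 to 1.97). The overexpression library was the high one, and the intervals of the levels lay far apart. The ratio was 8.45 (5.63 to 13.1), which placed SOX3 at rank 36 from the top of 12934 genes and at rank 32 of 11568 protein-coding genes. Its interval did not overlap that of any other SOX gene, the nearest being SOX8 (up to 4.44). Among the 3594 genes whose mean CPM lay within 2-fold of that of SOX3, 2.59% were beyond 2-fold higher. SOX2, the other B1 gene among the 10 looked up, had no row, so SOX3 is the only B1 gene described here. In these bulk libraries, more RNA per cell and more cells with the RNA cannot be told apart.

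SOX8, an E member active in neural crest, testis and muscle, lies on chromosome 16 at 981808 to 986979. It had the lowest mean CPM and the lowest FPKM of the 7, with 85 counts (4.93 CPM, 3.93 to 6.09) in the overexpression library and 34 counts (1.70 CPM, 1.18 to 2.38) in the control library. The intervals of the levels did not overlap, and the ratio was 2.89 (1.92 to 4.44), short of the rule for beyond 2-fold. At this level the counts are few, and 21.8% of the 3151 genes within 2-fold of its mean CPM were also 1.5-fold higher.

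SOX9, the other E member, is the master factor of cartilage formation and lies on chromosome 17 at 72121020 to 72126420. Its 808 counts in the overexpression library (46.8 CPM) and 769 in the control library (38.5 CPM) gave a ratio of 1.22 (1.10 to 1.34), which excluded 1 but fell short of 1.5-fold. The intervals of SOX8 and SOX9 did not overlap, so within the E group the rare member differed more between the libraries than the abundant one. SOX9-AS1, an antisense RNA whose locus spans SOX9, had 5 counts in the overexpression library and 0 in the control library. Strand information is not stated for the libraries, so reads of the pair cannot be told apart, and the 5 counts stand beside 808 for SOX9.

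The C members split. SOX4, on chromosome 6 at 21592769 to 21598619, had 575 counts (33.3 CPM) in the overexpression library and 387 counts (19.4 CPM) in the control library. SOX11, on chromosome 2 at 5692667 to 5701385, had 274 counts (15.9 CPM) and 203 counts (10.2 CPM) in the same order. Both were higher in the overexpression library, SOX4 1.72-fold (1.51 to 1.96) and SOX11 1.56-fold (1.30 to 1.88), with overlapping intervals. The point ratio of SOX11 lay close to the 1.5-fold limit, and 14.6% of the 3698 genes within 2-fold of its mean CPM passed the same rule. SOX12, on chromosome 20 at 325401 to 330224, is the least studied of the 3. It had 1979 counts (114.7 CPM) in the overexpression library and 2492 counts (124.8 CPM) in the control library, a ratio of 0.919 (0.866 to 0.976). By library totals the ratio of SOX12 was 0.997 and its interval included 1 (0.939 to 1.06). Summed over the C group, the counts were 2828 and 3082, a ratio of 1.06 (1.01 to 1.12), because SOX12 made up most of the sum.

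SOX13, the D member with a row, is known from T cells and arterial walls and lies on chromosome 1 at 204073115 to 204127743. It had 1224 counts (70.9 CPM) in the overexpression library and 1856 counts (92.9 CPM) in the control library. This was the lowest ratio of the 7, 1.31-fold lower (1.22 to 1.41), and the interval excluded 1 without reaching 1.5-fold. The members with the 3 highest counts, SOX12, SOX13 and SOX9, were the 3 that were neither higher nor lower, and the 4 higher members were the 4 with the lowest mean CPM. Across all genes compared, the share that was 1.5-fold higher was also larger at low levels, from 5.55% near the level of SOX12 to 21.8% near that of SOX8.

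**Figure D2:**
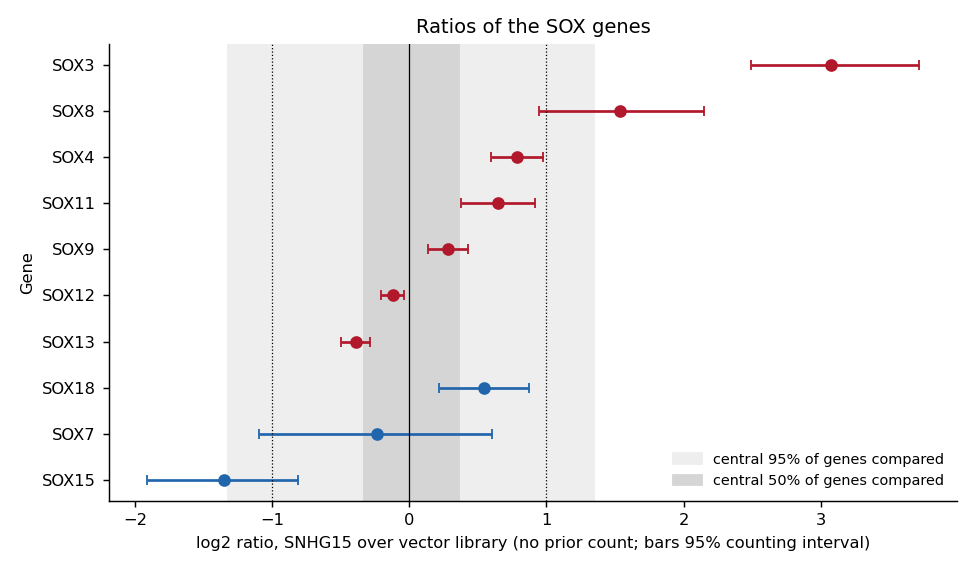
Log2 ratio of each SOX gene without a prior count (points) with its 95% counting interval (bars); red, the 7 genes described; blue, other SOX genes with a row; shaded, the central 50% and 95% of all genes compared (−0.33 to 0.36 and −1.32 to 1.35, with a prior count of 2); dotted lines, 2-fold. The whole interval of SOX3 lies past the upper dotted line, and that of SOX12 lies just below 0.

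In the authors' deposited table SOX3 and SOX8 were called higher, with log2 ratios of FPKM of 3.20 and 1.65 and adjusted p-values of 6.04e-18 and 0.000340. SOX4 had a log2 ratio of 0.90 and an adjusted p-value of 0.00689 in the authors' deposited table, and SOX11 0.76 and 0.0579, and neither was called there. With 1 library per group these deposited p-values cannot rest on a spread between replicates.

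Levels can be set between genes only per length, for which the FPKM deposited by the authors, a count per kilobase and library size, was used. In the control library the order was SOX12 (24.8 FPKM), SOX9 (9.40), SOX13 (7.40), SOX4 (3.18), SOX11 (1.12), SOX3 (0.516) and SOX8 (0.227). All neighbours in that order had counting intervals that did not overlap. In the overexpression library the order was SOX12 (24.8 FPKM), SOX9 (12.4), SOX13 (6.13), SOX4 (5.93), SOX3 (4.72), SOX11 (1.90) and SOX8 (0.712), and the neighbours SOX13 and SOX4 did not differ beyond their intervals. SOX3 thus stood above SOX11 in the overexpression library and below it in the control library. Its share of the FPKM summed over the 7 genes was 8.35% against 1.10%, and its FPKM stood at the 21.3 percentile of genes compared in the control library and at the 63.6 percentile in the overexpression library. SOX12 held the largest share in both, 43.8% in the overexpression library and 53.2% in the control library. The counts of the 7 summed to 5142 and 5768, a ratio of 1.03 (0.994 to 1.07), an interval that included 1.

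Gene structure and base composition, which played no part in the choice of the genes, differed among the 7. In GENCODE 29 the longest transcript of SOX3, SOX4, SOX11 and SOX12 has 1 exon, against 3.48% of 11564 protein-coding genes compared. The single-exon genes included 3 of the 4 higher members and also SOX12. Transcript GC content ranged from 47.7% for SOX11 to 63.8% for SOX8, and SOX3 (63.3%), SOX8 and SOX12 (62.0%) were above 58.6%, as were 2579 of the genes compared. The median log2 ratio of those genes was −0.27, against 0.23 for the 2579 genes below 41.4%, so SOX3 and SOX8 lay on the side opposite to genes of like composition. With the GC trend removed, the log2 ratio went from 2.98 to 3.29 for SOX3, from 1.48 to 1.79 for SOX8, from −0.39 to −0.16 for SOX13 and from −0.12 to 0.17 for SOX12.

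The 7 genes lie on 7 chromosomes, and the genes around them did not share 1 direction. Each was set against up to 20 compared genes on each side. Around SOX8, at the tip of chromosome 16, the median log2 ratio of 40 neighbours was −0.45 and 15.0% lay above 0. Around SOX12, at the tip of chromosome 20, the median of 23 neighbours was −0.53 and 4.35% lay above 0. For both genes the ratio lay above that of the surroundings, by 1.93 for SOX8 and 0.41 for SOX12 on the log2 scale. Around SOX3 the median was 0.39 and SOX3 exceeded it by 2.59, and for SOX4 and SOX11 the excess was 0.58 and 0.60. SOX9 was at the level of its neighbours, with 0.28 against 0.19, and SOX13 lay 0.52 below its own.

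The compared genes nearest to each SOX gene varied. CEROX1, a long non-coding RNA gene 0.212 kb from SOX8, had 26 and 24 counts, a ratio of 1.25 (0.692 to 2.28), and the calcium channel gene CACNA1H on the other side had 18 and 23 (0.906, 0.461 to 1.75). The ratio of SOX8 lay above both intervals. The genes flanking SOX12 were both lower without reaching 1.5-fold, ZCCHC3 with a ratio of 0.768 (0.673 to 0.876) and NRSN2 with 0.753 (0.689 to 0.823), and NRSN2-AS1, which overlaps SOX12 on the opposite strand, had 23 and 31 counts. LDOC1, 670.2 kb from SOX3 on the side of higher coordinates, had a ratio of 1.04 (0.977 to 1.10). For SOX4, CDKAL1 had a ratio of 1.19 (0.906 to 1.56) and MRS2, a mitochondrial magnesium channel gene, was 1.57-fold lower (1.27 to 1.95). LINC00511, a long non-coding RNA gene 196.7 kb from SOX9, was 2.40-fold lower (1.59 to 3.72), and ABCA5 on the other side had a ratio of 1.33 (0.817 to 2.17). LINC01304 and RNF144A beside SOX11 (1.10 and 1.02) and SNRPE and ETNK2 beside SOX13 (1.05 and 0.870) were neither.

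**Figure D3:**
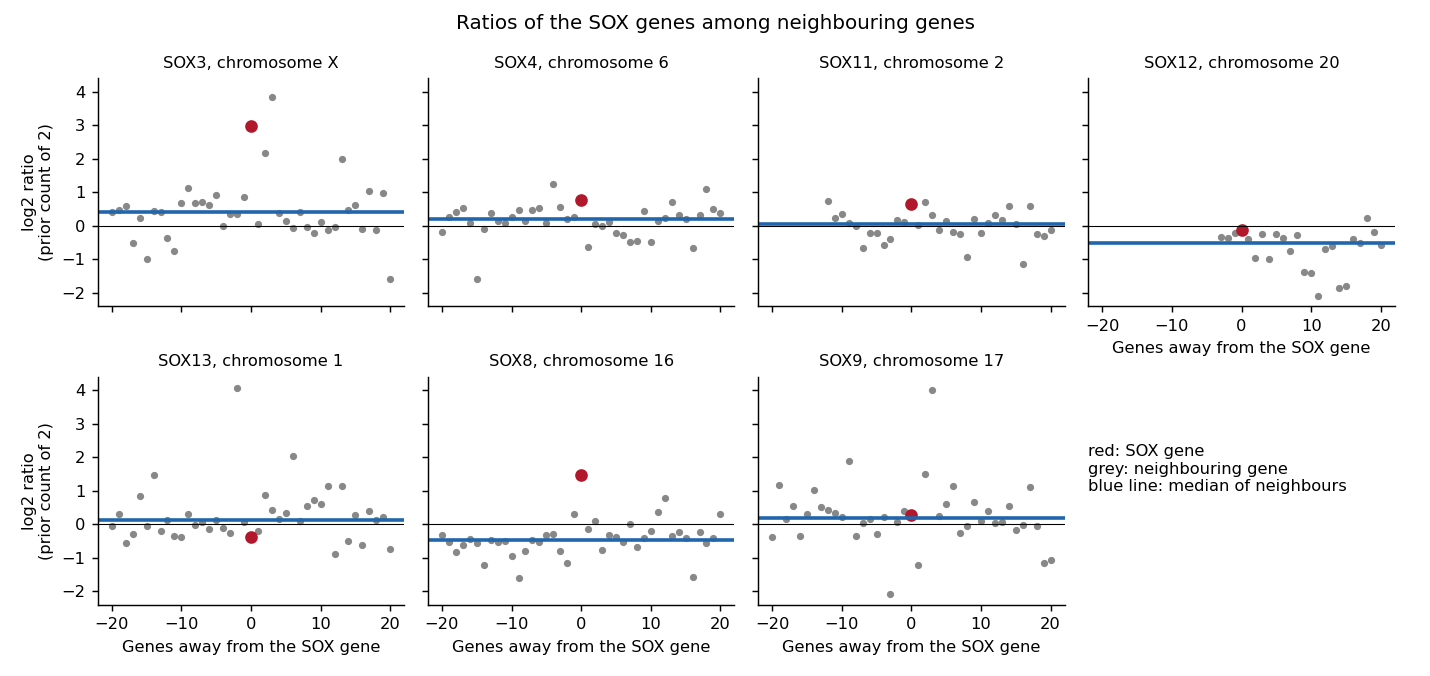
Log2 ratio with a prior count of 2 (vertical axis) of each SOX gene (red, at 0) and of up to 20 compared genes on each side (grey), in gene order; the blue line is the median of the neighbours. Around SOX8 and SOX12 the blue line lies at −0.45 and −0.53, and around SOX3 at 0.39.

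With 2 libraries, a pattern across samples is 1 ratio at 1 level. By distance in log2 ratio and log2 mean CPM over these 2 libraries, the protein-coding genes nearest to SOX3 were CCDC88C, ALDH3A1 and PARM1. CCDC88C had 188 and 32 counts, a ratio of 6.80 (4.66 to 10.2), ALDH3A1, an aldehyde dehydrogenase gene, 254 and 39 (7.54, 5.37 to 10.9), and PARM1 185 and 35 (6.12, 4.25 to 9.05).

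Of the 9 other SOX genes looked for, SOX7, SOX15 and SOX18 had a row. SOX15, which has roles in muscle precursors and skin, had 39 counts in the overexpression library and 115 in the control library and was 2.55-fold lower (1.76 to 3.76). SOX18, a factor of endothelial and lymphatic development, had 175 and 139 counts, a ratio of 1.46 (1.16 to 1.83) just short of 1.5-fold. SOX7 had 22 and 30 counts, and its interval included 1 (0.467 to 1.52). The wider family therefore held a lower member beside the 4 higher ones. Of the TCF and LEF factors, which share the HMG box and act in WNT signalling, TCF7L1 was 2.14-fold lower (1.63 to 2.84), while TCF7 (0.722) and TCF7L2 (1.11) were neither. LEF1 did not reach a mean of 1 CPM, with 15 counts against 0 and a lower interval bound of 4.15 for the ratio.

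SOX factors need partners, and few of the partner and pluripotency genes listed had a row, 5 of 15. Of the 4 compared, 1 was higher and 0 lower, against 13.3% higher and 12.2% lower of all genes compared. POU3F2, a neural POU factor that pairs with SOX2 and SOX11, had 55 and 37 counts and was 1.72-fold higher (1.11 to 2.69). PAX6 (1.04), POU2F1 (0.930) and KLF4 (1.38) were neither. No row was found for POU5F1, NANOG or SALL4, and LIN28A had 7 counts against 0. All 16 genes of proteins that modify or carry SOX factors were compared, with 1 higher, 1 lower and a median of 0.09, against 13.3% higher and 12.2% lower of all genes compared. Calmodulin takes part in the nuclear import of SOX factors. Of its genes, CALM2 was higher, by 0.59 on the log2 scale, and CALM3 was 2.80-fold lower (2.71 to 2.90), at 4043 counts against 13118. The abundant members AKT1 (0.842), CARM1 (0.776) and CTNNB1, beta-catenin (1.26), were neither.

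Genes reported to act downstream of each subgroup were also counted, from lists chosen with results of these data known. Of 7 compared neural progenitor genes linked to SOX2 and SOX3, 2 were higher and 0 lower, with a median of 0.23, against 13.3% higher and 12.2% lower of all genes compared. N-cadherin, CDH2, was at 20.9 CPM in the overexpression library and 3.95 CPM in the control library (5.28-fold, 4.12 to 6.82), and the hedgehog factor GLI2 had 50 and 16 counts (3.62-fold, 2.03 to 6.81). CCND1 (1.02), GLI3 (1.18) and NOTCH1 (0.865) were neither, and the progenitor markers NES (3 and 2 counts) and FABP7 (2 and 0 counts) did not reach 1 CPM. Of 7 compared targets of SOX4 and SOX11, 2 were higher and 0 lower, with a median of 0.46, beside the same 13.3% and 12.2%. Neuronal beta-tubulin, TUBB3, was at 313.5 and 165.1 CPM (1.90-fold, 1.82 to 1.98), and DICER1, the microRNA-processing enzyme, had 142 and 93 counts (1.77-fold, 1.35 to 2.32). EZH2 (1.38), CEMIP2 (1.47) and TEAD2 (0.846) were neither, and neuronal DCX, STMN2 and MAP2 did not reach 1 CPM.

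For cartilage genes of SOX9, SOX5 and SOX6, 5 of 14 were compared, with 1 higher, 1 lower and a median of 0.30, where 13.3% and 12.2% of all genes were higher and lower. The collagen chain gene COL9A2 had 170 and 83 counts (2.37-fold higher, 1.81 to 3.12) and COL27A1 had 64 and 177 (2.39-fold lower, 1.79 to 3.23). COL9A3 (1.16), COL11A2 (1.25) and MATN3 (1.42) had intervals that included 1, and COL2A1 and ACAN had no row. Of 8 compared neural crest and glial genes, 2 were higher, 1 lower and the median was 0.11, with shares of 13.3% and 12.2% over all genes. ERBB3, a neuregulin receptor, had 39 and 15 counts (3.01-fold, 1.62 to 5.88), and FOXD3, a neural crest factor, 30 and 9 (3.86-fold, 1.79 to 9.24). TWIST1, a factor of mesenchyme, was 1.67-fold lower (1.52 to 1.85), and TFAP2A (1.05), ETS1 (0.724) and PMP22 (1.12) were neither. GLI2, ERBB3 and FOXD3 were below 1 CPM in the control library and so entered the comparison through the library in which they were high.

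TGF-beta genes, listed because TGF-beta induces SOX4, lay on both sides of 1, with 3 higher, 3 lower and 2 neither of 8 and a median of −0.05, against 13.3% higher and 12.2% lower of all genes compared. The ligands TGFB3 and TGFB2 were 2.33-fold (1.87 to 2.92) and 1.76-fold higher (1.20 to 2.61), and SMAD4 2.21-fold (1.75 to 2.80). The abundant ligand TGFB1 was at 188.6 CPM against 330.3 (1.75-fold lower, 1.68 to 1.83), the receptor TGFBR2 was 1.69-fold lower (1.58 to 1.82) and the feedback inhibitor SMAD7 1.62-fold lower (1.35 to 1.94). SMAD2 (1.29) and SMAD3 (0.728) were neither. Of the lists of partners, modifiers and downstream genes, that of SOX4 and SOX11 targets had the highest median, with 2 of 7 compared genes higher. The lists were chosen with results of these data known, so this order supports no test. TWIST1 was the lowest compared member of the neural crest list.

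**Figure D4:**
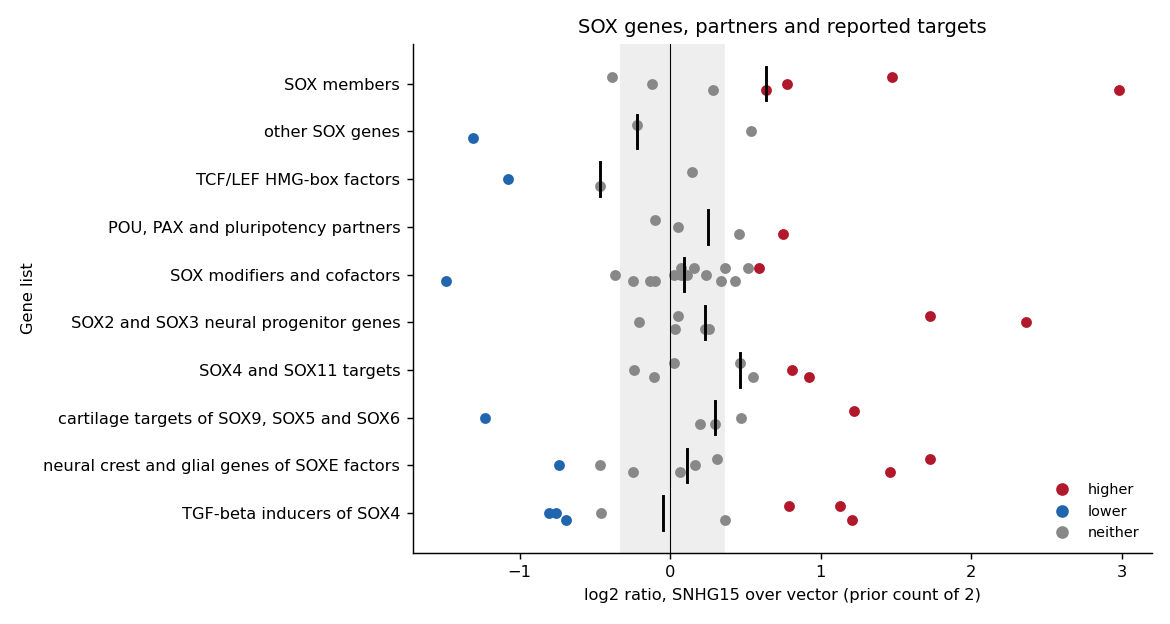
Log2 ratio (horizontal axis, prior count of 2) of every compared gene of each list; red, 1.5-fold higher; blue, 1.5-fold lower; grey, neither; black ticks, list medians; shaded, the central 50% of all genes compared. The SOX genes have a median of 0.64 and reach 2.98 with SOX3, and the TGF-beta genes lie on both sides of 0.

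The 4 higher SOX genes kept a log2 ratio above 0 under each of the 9 alternatives computed for single genes, but their size varied. That of SOX3 ran from 1.92 with a pseudocount of 1 added to the FPKM to 3.29 with the GC trend removed. That of SOX8 ran from 0.48 with the same pseudocount to 1.93 when centred on its neighbours. SOX13 stayed below 0 and SOX9 above 0 under the same 9. SOX12 was above 0 with the GC trend removed (0.17) and when centred on its neighbours (0.41).

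**Figure D5:**
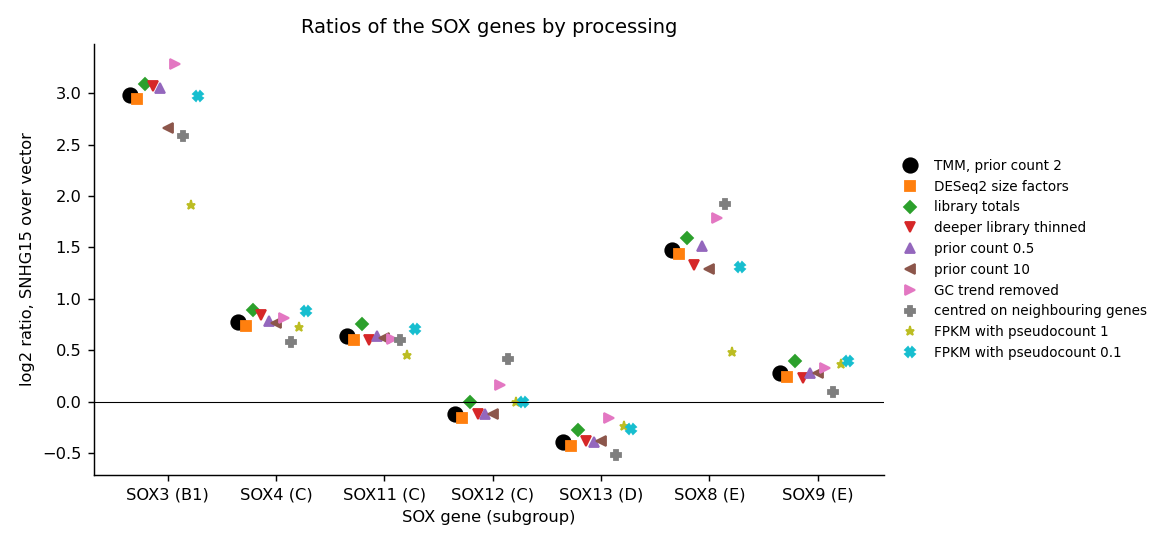
Log2 ratio of each SOX gene (vertical axis) under each way of processing, with the values used in the text as black circles and each alternative as a coloured mark. SOX3 lies between 1.92 and 3.29, and SOX12 is the gene whose marks fall on both sides of 0.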

How the data were processed

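The counts deposited by the authors are raw whole numbers for each gene, per the file headers. FPKM values were deposited beside them by the authors, per the file headers, as were a log2 ratio, which equals the log2 of the FPKM ratio, and p-values with adjusted p-values of an edgeR comparison, as the deposited table is named. Per the submitters' processing notes, the genome build was hg38. The aligner, counter, annotation, RNA selection and strandedness are not given in the sources used here.

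TMM factors (1.04 for the overexpression library, 0.960 for the control library) came from edgeR 4.0.16 in R 4.3.3. Ratios have exact conditional-binomial (Clopper-Pearson) 95% intervals of the 2 counts. Reads are not independent molecules, so intervals and floors of 3 counts (0.174 and 0.150 CPM) cover counting error only. Log2 ratios used a prior count of 2. GENCODE 29 matched 18903 identifiers. The GC trend was removed by loess (span 0.5). Named were the SOX genes, other SOX genes with a row, members of each fixed list that passed 1.5-fold with up to 3 abundant others, overlapping and flanking genes, and the 3 genes nearest to SOX3. SLITRK4, SLITRK2 and listed genes under 1 CPM or without a row were named after their values were seen. A few genes covered by this rule are left unreported. The members and lists were chosen with earlier results of these data known. Alternatives were scaling by totals or by DESeq2 1.42.0, no filter or a minimum of 5 CPM, thinning of the deeper library, GC and neighbour adjustment, FPKM with pseudocounts of 1 and 0.1, and prior counts of 0.5 and 10. On counts simulated for this comparison over 12934 genes and with counting error alone, the beyond 2-fold rule recovered 86.0% of 100 genes changed 3-fold. With a coefficient of variation of 0.2 added, it recovered 65.0%, called 60 unchanged genes, and 45.0% of the intervals covered the true ratio.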

Additional observations from a re-analysis of the deposited data

How the results depend on the processing

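With 1 library per group no replicate could be left out, and no value here measures variation between cultures. No paired analysis was possible because each group held 1 library. With a minimum of 5 CPM, 162 genes were beyond 2-fold higher in place of 285, fewer genes being tested. Of the 7 SOX genes described, the number 1.5-fold higher was 4 by DESeq2 size factors, by library totals, with no filter and with the deeper library thinned, and 3 with the minimum of 5 CPM, which leaves out SOX8. None of the 7 was 1.5-fold lower under these 5 alternatives. Their median log2 ratio ranged from 0.45 (FPKM with a pseudocount of 1) to 0.75 (library totals). Depth limits SOX3 and SOX8 most, with 27 and 34 counts in the control library.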

Other observations

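SOX3 lies in a stretch of chromosome X that held other genes higher in the overexpression library. The next compared genes on its higher-coordinate side after LDOC1 encode synaptic adhesion proteins of the SLITRK family. SLITRK4, 3.12 Mb from SOX3, had 34 counts in the overexpression library and 7 in the control library, a ratio of 5.62 (2.45 to 15.0). SLITRK2, 5.31 Mb away, had 49 counts against 2, a ratio of 28.4 (7.44 to 241). Both were chosen after their values were seen, and both were below 1 CPM in the control library, so they entered the comparison through the overexpression library. LDOC1, which lies between SOX3 and SLITRK4 and is far more abundant, had 2224 and 2487 counts and a ratio of 1.04 (0.977 to 1.10).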
